A study of Mus musculus with 12 samples.

Results

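Granulocyte colony factors and the receptors by which neutrophils answer them, and sense bacteria and damage, were followed in the colon of mice with DSS colitis. The set holds 10 of the 54532 genes counted, chosen by symbol: the colony factors Csf1, Csf2 and Csf3, the colony factor receptors Csf2rb and Csf3r, the formyl peptide receptors Fpr1 and Fpr2, the receptors Trem1 and Trem3, and the lectin receptor Clec4d. Total colon RNA of 12 male C57BL/6 mice was sequenced, 3 mice in each of 4 groups, and libraries carry the name of their group and a replicate number, so that DSS 2 is the second replicate of DSS. The mice were 6 weeks old when supplied and adapted for 1 week. The DSS group drank 3% (w/v) dextran sulfate sodium, a polysaccharide that injures the colon epithelium, for 5 days. Ursolic acid (UA), a plant triterpenoid, was given by gavage at 200 mg/kg once a day in both other groups, which drank DSS in the same way. UA was started 1 day ahead of DSS and given for 7 days in the UA+DSS group, and was started 3 days after DSS and given for 4 days in the DSS+UA group. These numbers of days are those of the methods, and the discussion of the study gives longer courses. The Con group is labelled as untreated, whereas the study's methods give it, like the DSS group, gavage of the vehicle.

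Colony factors are secreted proteins that steer the making of white blood cells. G-CSF, encoded by Csf3, drives the release and survival of neutrophils through the receptor Csf3r, GM-CSF (Csf2) acts on neutrophils and macrophages through a receptor whose signalling chain is Csf2rb, and M-CSF (Csf1) keeps macrophages alive through Csf1r. Neutrophils find bacteria by formyl peptides, which bind Fpr1 and Fpr2, and Trem1, Trem3 and Clec4d are surface receptors of neutrophils and monocytes that signal through adaptor proteins with an activating motif. In colitis neutrophils enter the colon wall in large numbers, so that these receptors are carried into a tissue that holds few such cells at rest.

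Levels are given in CPM, read counts brought to 1 common library size after TMM scaling (factors of 0.871 to 1.09, total counts of 15566216 to 19498383 per library). All comparisons come from 1 edgeR quasi-likelihood fit over the 12 libraries, and an edgeR adjusted p is adjusted by the Benjamini-Hochberg method over the 17658 genes tested, with a gene called under 0.05. Libraries that stood apart bear on most of these genes. DSS 2 held a summed level of the 11 neutrophil markers of 17709 CPM, where DSS 1 and DSS 3 held 882 and 1019 CPM, and values without DSS 2 are therefore given beside the results that rest on it. DSS 3 held a summed level of the 5 pancreatic acinar genes of 11993 CPM against 30.7 to 553 CPM in every other library. In a position score the mean log2 CPM of 6 Hox genes of the caecal end of the colon is subtracted from that of 5 Hox genes of the rectal end. It was -5.70 to -4.16 in UA+DSS, 0.37 to 3.10 in DSS, 4.11 to 5.06 in DSS+UA and -3.03 to 5.53 in Con. The 3 DSS-drinking groups thus did not overlap in it, and neither did UA+DSS and Con. Between such groups a fit with this score as a covariate can therefore not tell the group from the score. The epithelial markers were present in every library, with a summed level of 4774 to 22994 CPM.

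The start regions of the receptor genes are shown because these receptors were all higher in DSS than in Con. Of the 10 genes, 7 had an entry in the RefSeq promoter table of build GRCm38.p6, and Csf3, Csf2rb and Trem3 had none. The bases before the start of the gene are printed 5′ to 3′ for 5 receptors, from 250 bases before the RefSeq start: Csf3r at chr4:126024409-126024549 (plus strand), Fpr1 at chr17:17883941-17884189 (minus strand), Fpr2 at chr17:17887574-17887823 (plus strand), Trem1 at chr17:48232489-48232738 (plus strand) and Clec4d at chr6:123261857-123262106 (plus strand). Capitals mark matches, on either strand, to GAGGAA (bound by PU.1, a myeloid transcription factor encoded by Spi1), TTNNGCAA (C/EBP), GGGNNNTTCC (NF-kappaB) and TATAAA (the TATA box), and no matches overlapped in these 5 genes. The RefSeq starts of Csf3r and Fpr1 lie inside the genes as GENCODE places them, so the last 109 bases of the window of Csf3r and the last base of that of Fpr1 are not shown.
Csf3r: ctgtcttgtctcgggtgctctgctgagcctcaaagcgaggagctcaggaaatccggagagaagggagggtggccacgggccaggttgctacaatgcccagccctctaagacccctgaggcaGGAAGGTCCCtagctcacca
Fpr1: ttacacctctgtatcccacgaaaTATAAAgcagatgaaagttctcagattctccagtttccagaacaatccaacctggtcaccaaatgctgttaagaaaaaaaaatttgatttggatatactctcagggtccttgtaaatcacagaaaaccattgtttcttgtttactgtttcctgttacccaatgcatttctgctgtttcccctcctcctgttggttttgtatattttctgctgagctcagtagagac
Fpr2: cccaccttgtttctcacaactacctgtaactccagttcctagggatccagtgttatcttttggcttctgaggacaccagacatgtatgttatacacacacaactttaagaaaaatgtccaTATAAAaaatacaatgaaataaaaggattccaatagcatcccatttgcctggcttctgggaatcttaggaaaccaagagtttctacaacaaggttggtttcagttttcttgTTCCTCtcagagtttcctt
Trem1: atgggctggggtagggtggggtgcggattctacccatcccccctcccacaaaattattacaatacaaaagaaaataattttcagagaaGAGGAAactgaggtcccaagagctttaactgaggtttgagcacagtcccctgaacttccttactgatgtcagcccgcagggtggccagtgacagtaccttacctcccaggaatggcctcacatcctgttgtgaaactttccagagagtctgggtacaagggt
Clec4d: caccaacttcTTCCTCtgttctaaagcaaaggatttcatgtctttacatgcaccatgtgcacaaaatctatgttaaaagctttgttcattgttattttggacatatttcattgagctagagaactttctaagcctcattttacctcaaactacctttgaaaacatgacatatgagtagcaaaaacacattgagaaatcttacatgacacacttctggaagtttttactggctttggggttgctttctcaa
In the full windows of 250 bases GAGGAA was found in Csf3r, Fpr2, Trem1 and Clec4d, 4 of the 7 genes, and in 23.3% of the 32851 promoters of the table. Counted from the RefSeq start, its first base lay 86 bases before it in Csf3r (inside the GENCODE gene, and not among the bases shown), in Trem1 162, and on the other strand in Fpr2 19 and in Clec4d 240 bases before the start. The NF-kappaB letters were found in Csf3r, 129 bases before the start, and in Csf1, and in 4.65% of all promoters. TATAAA was found before Fpr1 and Fpr2 but 227 and 130 bases from the start, and before 12.4% of all genes of the table. The C/EBP letters were found only in Csf2 among the 7, against 9.56% of all promoters. A match describes the letters of the window and not a bound site.

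Csf3, a gene of chromosome 11 (98701263 to 98703629 on GRCm38), was almost silent in Con and had risen in every DSS library. Its level was 0, 0.111 and 0 CPM in Con 1 to 3, from 2 reads in all, and 14.6, 50.9 and 25.7 CPM in DSS 1 to 3. In UA+DSS it was 0.320, 0 and 1.43 CPM, and in DSS+UA 3.0, 0.371 and 7.42 CPM. Every DSS library was thus above every library of the other groups, and the lowest, DSS 1, was 1.96 times the highest DSS+UA library. The ratio of DSS to Con was 849 from 1812 against 2 counts (95% exact binomial interval 235 to 7014, counting error only), and edgeR called Csf3 raised (edgeR adjusted p = 0.00407, 7.99e-07 to 0.0240 over its alternatives). The ratio was 558 without DSS 2, 556 and 566 without Con 1 and Con 3, and at least 384 without Con 2, the only Con library with a read (floor 3 counts over the group).

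Csf1 (chromosome 3, 107741048 to 107760469) was the colony factor that the resting colon already expressed, and it rose far less in DSS than Csf3. Con 1 to 3 held 22.8, 11.1 and 25.4 CPM and DSS 1 to 3 held 31.9, 45.7 and 34.7 CPM. UA+DSS stood at 21.9, 15.2 and 16.9 CPM and DSS+UA at 17.2, 23.0 and 20.4 CPM. The DSS libraries lay above all 9 others, by at least 1.25 times against Con, while the other 3 groups overlapped with each other. In DSS against Con the log2 fold change was 0.92 (SE 0.28, edgeR adjusted p = 0.0351, 0.0121 to 0.111 over its alternatives). The call was lost without DSS 2 (0.75, edgeR adjusted p = 0.104), without Con 2 (0.64, edgeR adjusted p = 0.0794), and without DSS 1, DSS 3, UA+DSS 3 or DSS+UA 3 (0.92 to 1.03, edgeR adjusted p 0.0509 to 0.0526).

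Csf2 (chromosome 11, 54247271 to 54249667) was close to the limit of detection and could not be tested. Its counts were 1, 5 and 1 in Con, 2, 19 and 3 in DSS, 1 in each UA+DSS library, and 1, 0 and 7 in DSS+UA. Only DSS 2 reached the 0.539 CPM of the filter, with 0.949 CPM, and DSS 1 lay below Con 2. The ratio of DSS to Con was 3.21 (95% interval 1.34 to 8.83 from 24 against 7 counts, counting error only), and without DSS 2 it was 1.00 (0.251 to 3.68 from 5 against 7 counts). Without Con 2 it was 7.63 (1.89 to 66.6). Its exons share 96 bases with Gm12223 on the other strand, and the use of strand in counting is not given in the sources used here.

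Csf2rb (chromosome 15, 78325752 to 78353847), the chain shared by the receptors for GM-CSF, IL-3 and IL-5, rose in DSS and stood lower in both UA groups. Con 1 to 3 held 7.95, 4.38 and 8.12 CPM, and DSS 1 to 3 held 90.1, 457 and 54.4 CPM. UA+DSS held 29.4, 13.0 and 14.5 CPM, and DSS+UA 27.9, 28.9 and 34.3 CPM. DSS stood above all other libraries, and both UA groups stood above Con without overlap. In DSS against Con the log2 fold change was 4.88 (SE 0.78, edgeR adjusted p = 0.00322) and 3.41 without DSS 2 (edgeR adjusted p = 0.000897). Its counts are uncertain because 12.3% of its stretches of 50 bases are shared with other genes, mainly its paralog Csf2rb2, which lies on the same chromosome.

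Csf3r (chromosome 4, 126024550 to 126044440), the receptor of G-CSF, showed the same order with a wider range. It held 1.45, 0.720 and 1.87 CPM in Con, 34.0, 658 and 24.4 CPM in DSS, 4.17, 2.06 and 3.45 CPM in UA+DSS, with 13.5, 15.9 and 32.5 CPM in DSS+UA. DSS+UA 3 lay above DSS 3, so that these groups overlapped, whereas UA+DSS lay below both and above Con. The log2 fold change of DSS against Con was 7.46 (SE 1.35, edgeR adjusted p = 0.00480), and 4.43 without DSS 2 (edgeR adjusted p = 0.000821). Its counts are uncertain too, since 10.7% of its stretches of 50 bases are shared with another gene.

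The formyl peptide receptors lie beside each other on chromosome 17, Fpr1 at 17876471 to 17883940 and Fpr2 at 17887824 to 17893952. Fpr1, which binds bacterial formyl peptides with high affinity, held 0.0516, 0.111 and 0.320 CPM in Con and 11.6, 363 and 12.6 CPM in DSS. It held 1.92, 0.437 and 1.59 CPM in UA+DSS, with 6.73, 2.16 and 9.03 CPM in DSS+UA. No 2 groups overlapped, and the order from low to high was Con, UA+DSS, DSS+UA and DSS. For Fpr2, a receptor of formyl peptides and of annexin A1, the values were 0.258, 0.333 and 0.107 CPM in Con, 10.9, 156 and 7.76 CPM in DSS, 1.35, 0.687 and 1.65 CPM in UA+DSS, with 4.16, 2.47 and 5.37 CPM in DSS+UA. The 4 groups of Fpr2 again did not overlap and stood in the same order. In DSS against Con the log2 fold change of Fpr1 was 9.60 (SE 1.76, edgeR adjusted p = 0.00512), 6.18 without DSS 2 and 10.53 without Con 3, each with a call. Fpr2 had a log2 fold change of 7.93 (SE 1.32, edgeR adjusted p = 0.00368), and 5.29 without DSS 2 (edgeR adjusted p = 0.000703). limma-voom called neither (adjusted p = 0.10 for Fpr1 and 0.0552 for Fpr2). Fpr2 shares 31.5% of its stretches of 50 bases with a predicted gene, so its counts are uncertain.

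Trem1 (chromosome 17, 48232768 to 48246924), an amplifier of inflammatory signals on neutrophils and monocytes, held 0.0516, 0.333 and 0.0534 CPM in Con and 21.8, 569 and 25.0 CPM in DSS. In UA+DSS it held 0.192, 0.187 and 1.38 CPM, which overlapped with Con, and in DSS+UA 13.5, 4.20 and 20.1 CPM, above both and below every DSS library. Its log2 fold change in DSS against Con was 10.42 (SE 1.82, edgeR adjusted p = 0.00429), 7.29 without DSS 2 (edgeR adjusted p = 0.00268) and 11.76 without Con 2, and limma-voom did not call it (adjusted p = 0.0707). Its neighbour Trem3 (48247777 to 48258841), a receptor that works in mice through the adaptor Tyrobp, was much lower. Trem3 held 0, 0 and 0.107 CPM in Con, 2.16, 35.9 and 1.94 CPM in DSS, 0.0641, 0.25 and 0.159 CPM in UA+DSS, with 1.10, 1.61 and 1.33 CPM in DSS+UA. DSS and DSS+UA did not overlap with any other group, and UA+DSS overlapped with Con. The ratio of DSS to Con for Trem3 was 375 from 801 against 2 counts (95% interval 104 to 3104, counting error only), and edgeR called it raised (edgeR adjusted p = 0.00467). That ratio was 57.7 without DSS 2, 246 and 255 without Con 1 and Con 2, and at least 167 without Con 3, the only Con library with a read.

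Clec4d (chromosome 6, 123262111 to 123275265), a C-type lectin that binds lipids of mycobacteria and pairs with Clec4e, had the smallest SE of the receptors that were near 0 in Con. Con 1 to 3 held 0.929, 0.277 and 0.534 CPM, DSS 1 to 3 held 30.9, 339 and 18.6 CPM, UA+DSS 2.44, 1.19 and 2.28 CPM, and DSS+UA 10.7, 11.1 and 12.5 CPM. The 4 groups did not overlap. In DSS against Con its log2 fold change was 7.78 (SE 1.19, edgeR adjusted p = 0.00300), and 5.39 without DSS 2 (edgeR adjusted p = 0.000288).

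**Figure D1:**
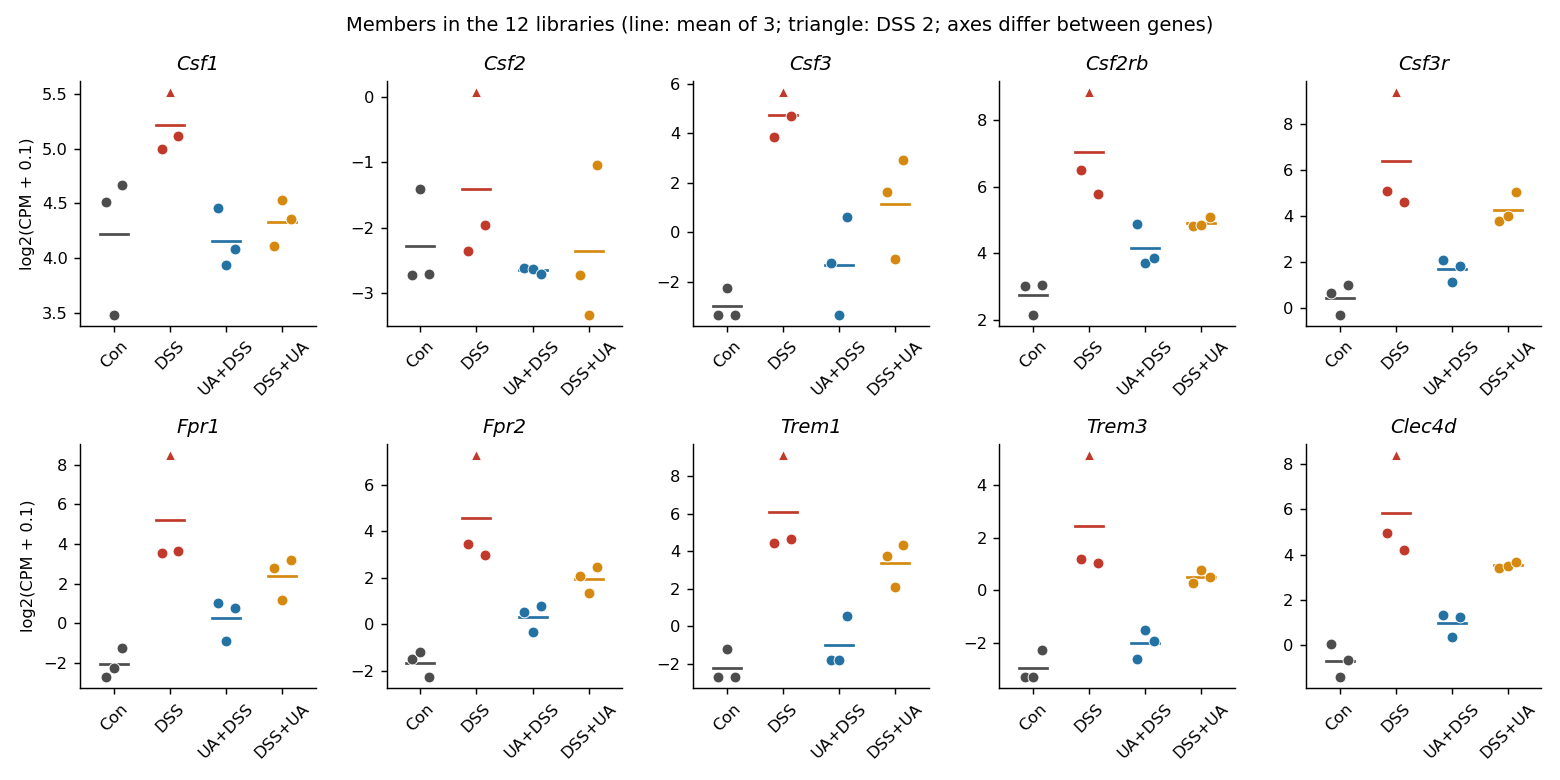
CPM of the 10 genes in the 12 libraries, as log2(CPM + 0.1) with an axis of its own for each gene; points are libraries, lines the mean of the 3 libraries of a group, and triangles DSS 2. DSS lies above every other library in all genes but Csf2 and Csf3r, and DSS 2 is the highest DSS library in every panel.

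In DSS against Con, edgeR called 9 genes of the set raised and could not test Csf2, where 13.9% of all genes were called raised and 12.6% lowered. Non-overlapping DSS libraries, all higher, were seen in the same 9 genes, against 21% of all genes. That count is no support on its own, because Csf3, Fpr1, Fpr2, Trem1 and Trem3 reached the filter of 0.539 CPM in no Con library, and Clec4d in 1, and were tested only because other groups held more. Csf1, Csf2rb and Csf3r reached it in all 3. Most neutrophil markers rose with these genes. Their summed level was 9.81 to 114 CPM in Con (median 12.4) with Elane and Mpo at 0, and 882 to 17709 CPM in DSS (median 1019). Of the 9 tested, 8 were called raised and Ly6g was not. Ly6g held up to 112 CPM in Con, most of the highest Con sum, and at least 188 CPM in DSS. The monocyte or macrophage markers rose as well (120 to 294 CPM in Con and 532 to 1388 CPM in DSS, with 7 of 10 called raised), and the epithelial sum was 4774 to 10452 CPM in DSS and 9061 to 22517 CPM in Con. In bulk RNA more cells of a type and more RNA per cell cannot be told apart, and the part of these markers in the results was not tested.

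DSS 2 did not multiply all genes of the set alike. Its level over the mean of DSS 1 and DSS 3 was 30.0 for Fpr1, 24.3 for Trem1, 22.5 for Csf3r, 17.5 for Trem3, 16.7 for Fpr2 and 13.7 for Clec4d, but 6.32 for Csf2rb, 2.53 for Csf3 and 1.37 for Csf1. Of the 9 tested neutrophil markers, S100a8 (25.4), S100a9 (26.2), Retnlg (27.0), Mmp8 (22.1) and Ngp (15.9) had ratios within the range of these 6 receptors, while those of Mmp9 (11), Ltf (7.96) and Camp (6.15) were lower. Of the 10 monocyte or macrophage markers 7 were lower in DSS 2, from 0.163 for Cd163 and 0.256 for Mrc1 to 0.799 for Cx3cr1, and Cd68 (1.26), Ccr2 (1.37) and Ly6c2 (1.4) were higher. Csf1r, the receptor of Csf1, had a ratio of 1.36, close to that of its ligand. Ly6g had the lowest ratio of the tested neutrophil markers, 1.26. Between DSS 1 and DSS 3 the genes of the set differed much less, with ratios of 0.567 (Csf3) to 1.66 (Csf2rb and Clec4d) among the 9 tested. These ratios compare single libraries and have no replicate.

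**Figure D2:**
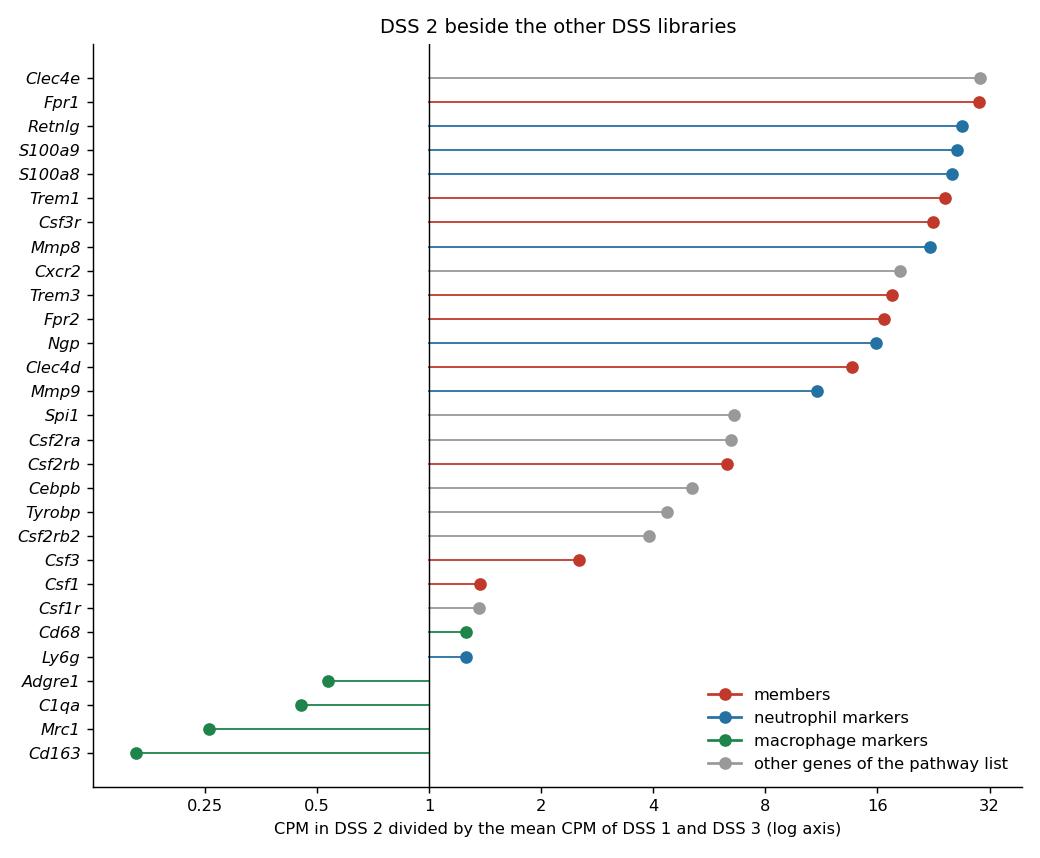
CPM in DSS 2 divided by the mean CPM of DSS 1 and DSS 3, on a log axis, for 9 genes of the set (red). Some of the neutrophil markers (blue), macrophage markers (green) and other genes of the pathway list (grey) are also drawn. Ltf, Camp, Ly6c2 and Ccr2 are among the markers not drawn. The receptors Clec4d to Fpr1 lie at 13.7 to 30.0 beside S100a8 and S100a9, while Csf3 and Csf1 lie at 2.53 and 1.37.

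The ligand Csf3 and its receptor Csf3r differed in their balance between libraries. Per kb of exon, the level of Csf3 over that of Csf3r was 1.10 in DSS 1, 0.197 in DSS 2 and 2.69 in DSS 3, and 0.569, 0.0596 and 0.583 in DSS+UA 1 to 3. DSS 2 thus held the highest level of both but the lowest share of ligand of the 3 DSS libraries. For Csf1 over Csf1r the ratio per kb was 0.637 to 0.912 in Con and 0.194 to 0.393 in DSS, without overlap. It was 0.335 to 0.713 in UA+DSS and 0.372 to 0.584 in DSS+UA. Csf1r was called raised in DSS against Con (log2 fold change 2.30, SE 0.51, edgeR adjusted p = 0.0104, and 2.13 without DSS 2), and its counts are uncertain, because its exons overlap Hmgxb3 on the other strand.

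**Figure D3:**
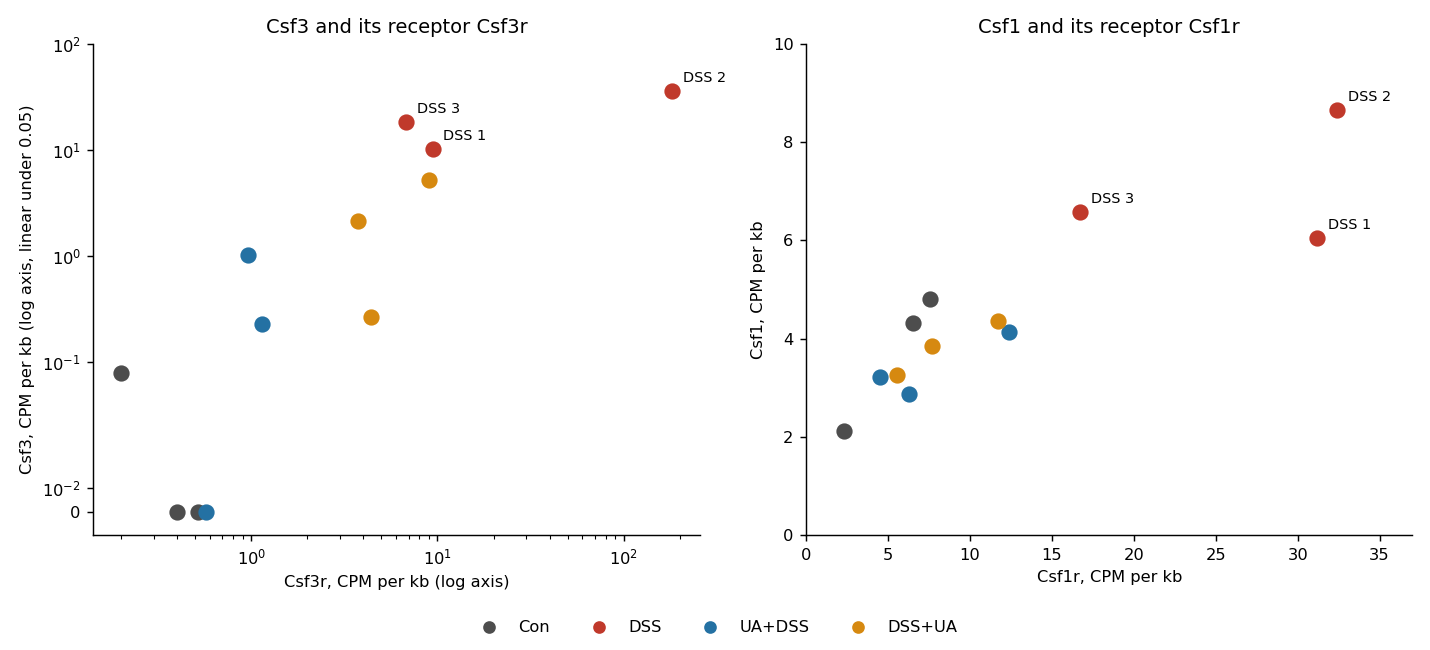
CPM per kb of exon of Csf3 against Csf3r (left, log axes, the vertical one linear under 0.05) and of Csf1 against Csf1r (right, linear axes) in the 12 libraries, coloured by group. On the left DSS 2 lies far to the right at 182 for Csf3r and 36.0 for Csf3; on the right the 3 DSS libraries lie apart from the others at 16.7 to 32.4 for Csf1r.

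Levels per kb of exon give the order of the 10 genes within a library. In all 6 Con and UA+DSS libraries Csf1 was the highest and Csf2rb the next. Clec4d led in DSS 1 (19.3 CPM per kb), Fpr1 in DSS 2 (274) and Csf3 in DSS 3 (18.2). In DSS+UA Clec4d led in replicates 1 and 2 (6.71 and 6.96) and Csf3r in replicate 3 (9.01). Csf2 was the lowest in all DSS and DSS+UA libraries. Within a DSS library neighbours in the order were often closer than the spread between libraries: Fpr1, Fpr2 and Csf3r held 8.73, 8.40 and 9.42 CPM per kb in DSS 1.

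Early UA was compared with DSS alone by UA+DSS against DSS. In UA+DSS all receptors of the set and both tested ligands stood below every DSS library. The log2 fold change was -8.37 for Trem1 (SE 1.60, edgeR adjusted p = 0.0122), -6.61 for Fpr1 (SE 1.45, edgeR adjusted p = 0.0163), -6.34 for Trem3 (SE 1.29, edgeR adjusted p = 0.0137) and -6.21 for Csf3r (SE 1.26, edgeR adjusted p = 0.0137). It was -6.04 for Clec4d (SE 1.08, edgeR adjusted p = 0.0104), -5.64 for Csf3 (SE 1.23, edgeR adjusted p = 0.0159), -5.55 for Fpr2 (SE 1.13, edgeR adjusted p = 0.0137), -3.41 for Csf2rb (SE 0.72, edgeR adjusted p = 0.0151) and -1.06 for Csf1 (SE 0.29, edgeR adjusted p = 0.0287). Thus 9 genes were called lowered, where 10.5% of all genes were called lowered and 8.21% raised, and 9 did not overlap, against 21.5% of all genes. These counts are no support on their own. Trem3 reached the filter of 0.539 CPM in 0 UA+DSS libraries and Csf3 and Trem1 in 1 each, while all 3 genes reached it in every DSS library. Csf2 had 3 counts against 24 (ratio 0.149, 95% interval 0.0286 to 0.489), and 0.475 (0.0737 to 2.44) without DSS 2.

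Without DSS 2 the fall to UA+DSS was smaller in the receptors. The log2 fold change was then -5.27 for Trem1, -3.65 for Trem3, -3.66 for Clec4d, -3.20 for Fpr1, -3.19 for Csf3r, -2.92 for Fpr2 and -1.94 for Csf2rb, and -5.06 for Csf3, and these 8 stayed called (edgeR adjusted p 0.00448 to 0.0386), while Csf1 did not (-0.90, edgeR adjusted p = 0.0842). Without UA+DSS 2 none of the 9 was called (edgeR adjusted p 0.0614 to 0.116), though the log2 fold changes stayed between -7.96 and -0.95. Without UA+DSS 3 Csf1, Csf2rb and Fpr1 lost their calls, and without UA+DSS 1 Csf3 did. Without UA+DSS 3 the log2 fold change of Trem1 was -10.03 and that of Csf3 -7.53. With the position score as a covariate the log2 fold changes were -9.26 to -0.74 and no gene was called (edgeR adjusted p 0.165 to 0.340). The score did not overlap between UA+DSS and DSS, so that this fit cannot tell the group from the score. The neutrophil marker sum was 29.0 to 129 CPM in UA+DSS, with 8 of the 9 tested markers called lowered, and the macrophage sum was 221 to 495 CPM, with 5 of 10 called lowered.

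UA begun during DSS was compared by DSS+UA against DSS, where the set was lower by less and mostly not past the threshold. Csf2rb (log2 fold change -2.73, SE 0.70, edgeR adjusted p = 0.0446), Fpr2 (-3.86, SE 1.02, edgeR adjusted p = 0.0479) and Clec4d (-3.50, SE 0.94, edgeR adjusted p = 0.0486) were called lowered, where 5% of all genes were. The other 6 had log2 fold changes of -4.43 (Fpr1), -4.02 (Trem1), -3.54 (Csf3r), -3.31 (Trem3), -3.08 (Csf3) and -0.90 (Csf1), with edgeR adjusted p of 0.0578 to 0.0877. Their DSS+UA libraries lay below every DSS library in 8 of the 9 tested genes, Csf3r being the exception, against 16.1% of all genes. The ratio of Csf2 was 0.375 (95% interval 0.146 to 0.863 from 8 against 24 counts), and 1.20 (0.346 to 4.66) without DSS 2.

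These differences rested in large part on DSS 2. Without it no gene of the set was called, and the log2 fold changes were -0.49 for Csf3r, -0.60 for Trem3, -0.88 for Trem1, -1.01 for Fpr1, -1.10 for Clec4d, -1.21 for Fpr2, -1.24 for Csf2rb, -2.47 for Csf3 and -0.71 for Csf1 (edgeR adjusted p 0.0988 to 0.589). As a share of the mean of DSS 1 and DSS 3, the DSS+UA mean was 17.9% for Csf3, 42.0% for Csf2rb, 46.2% for Clec4d, 53.8% for Trem1 and 70.6% for Csf3r. Without DSS 1 or without DSS 3, 7 genes were called, with Csf3 and Csf1 the exceptions. No gene was called without Con 3 or any 1 of the UA+DSS and DSS+UA libraries, and 1 without Con 1 or Con 2. The neutrophil marker sum was 394 to 1017 CPM in DSS+UA with 1 of the 9 tested markers called lowered. Ly6g held up to 390 CPM of it, and its mean was 137% of that of DSS 1 and DSS 3. This share was 72.2% for S100a8, 71% for S100a9 and 67.2% for Retnlg, but 36% for Mmp9, 31.3% for Mmp8 and 23.7% for Ngp.

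**Figure D4:**
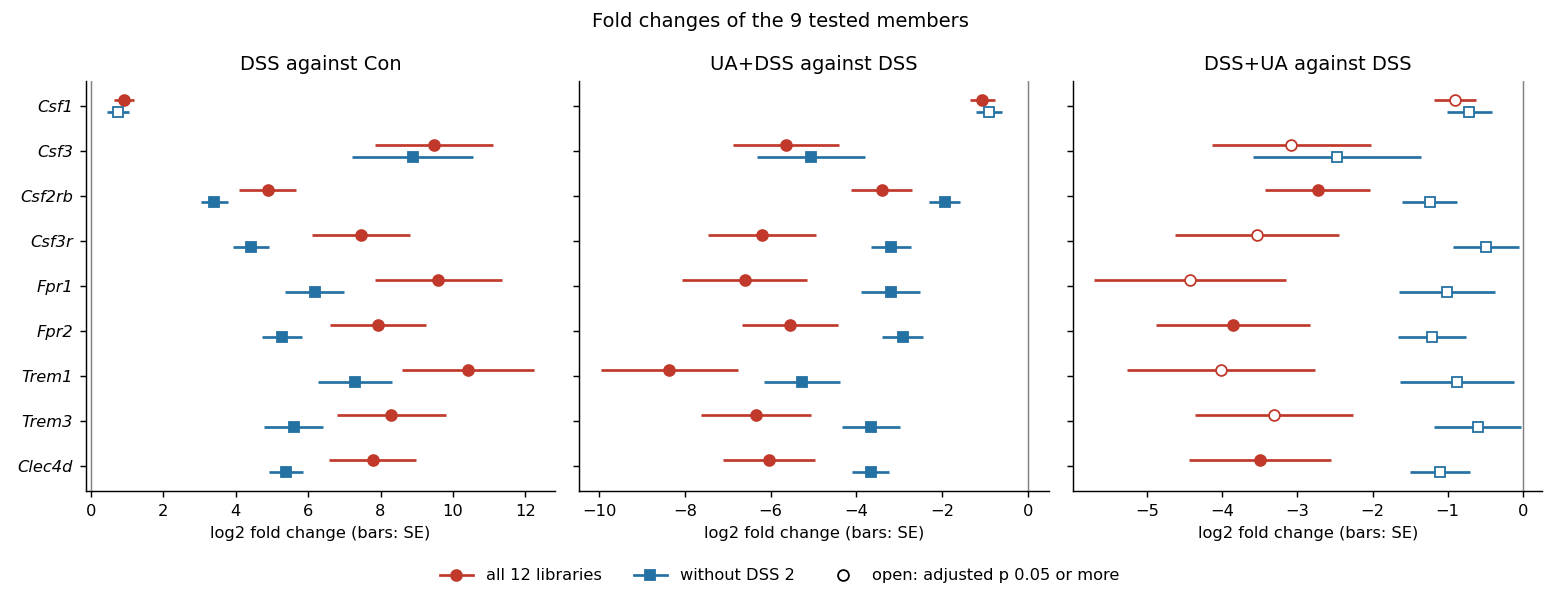
log2 fold changes with SE of the 9 tested genes in 3 comparisons, from all 12 libraries (circles) and without DSS 2 (squares); filled points are called at an adjusted p under 0.05. Without DSS 2 the receptors move toward 0 in every panel, and in DSS+UA against DSS none is then called. The fitted values of Csf3 and Trem3 against Con rest on 2 Con counts each.

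In UA+DSS against Con no gene of the set was called by edgeR (edgeR adjusted p 0.424 to 0.855), DESeq2 or limma-voom, and 0 had an unadjusted p under 0.05. Over all genes edgeR called 0.00566% in either direction. The position score did not overlap between UA+DSS and Con, so that group and score cannot be told apart here. Csf2rb (log2 fold change 1.47, SE 0.69), Csf3r (1.25, SE 1.16), Fpr1 (2.99, SE 1.78), Fpr2 (2.38, SE 1.27) and Clec4d (1.74, SE 1.10) lay above every Con library in all 3 UA+DSS libraries, as did 9.62% of all genes. Such a count is no support on its own. Fpr1 and Fpr2 reached the filter of 0.539 CPM in 0 Con libraries and Clec4d in 1, and they were tested only because other groups held more. With DSS 2 left out of the fit, the SE was 0.35 for Csf2rb, 0.44 for Csf3r and 0.78 for Fpr1, still without a call (edgeR adjusted p = 0.157, 0.283 and 0.187). Of the 9 tested neutrophil markers 0 were called, 6 lay above every Con library, and the median log2 fold change was 5.03. Csf3 had 32 counts against 2, a ratio of 17.8 (95% interval 4.54 to 153, counting error only), of which 27 came from UA+DSS 3, and without that library the ratio was 4.44 (0.727 to 46.6). It was 11.7 and 11.9 without Con 1 and Con 3, and at least 8.06 without Con 2.

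In DSS+UA against Con, 6 genes were called raised, where 9.13% of all genes were. They were Csf3 (ratio 104 from 197 against 2 counts, 95% interval 28.4 to 864, edgeR adjusted p = 0.0242), Trem3 (ratio 37.4 from 71 against 2 counts, 95% interval 9.99 to 315, edgeR adjusted p = 0.0446), Trem1 (log2 fold change 6.40, SE 1.70, edgeR adjusted p = 0.0292), Clec4d (4.27, SE 1.08, edgeR adjusted p = 0.0243), Fpr2 (4.07, SE 1.23, edgeR adjusted p = 0.0438) and Csf3r (3.93, SE 1.18, edgeR adjusted p = 0.0438). Fpr1 (5.16, SE 1.65, edgeR adjusted p = 0.0533) and Csf2rb (2.15, SE 0.70, edgeR adjusted p = 0.0550) were not called, and Csf1 was level (0.03, SE 0.28, edgeR adjusted p = 0.956). All but Csf1 did not overlap with Con, 8 of 9 against 19.8% of all genes. This count too is no support on its own, since Csf3, Fpr1, Fpr2, Trem1, Trem3 and Clec4d passed the filter through groups other than Con. The calls depended on the libraries: 8 were made without DSS 2 or DSS 3, 7 without DSS 1, 3 without DSS+UA 2 or any 1 UA+DSS library, 1 without Con 1 or DSS+UA 1, and 0 without Con 2, Con 3 or DSS+UA 3. None was called by limma-voom or with the position score as a covariate. The ratio of Csf3 was 50.3 without DSS+UA 3, 68.0 and 69.2 without Con 1 and Con 3, and at least 47.0 without Con 2, that of Trem3 was 24.5 and 25.4 without Con 1 and Con 2 and at least 16.6 without Con 3, and the log2 fold change of Trem1 was 7.74 without Con 2.

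The timings of UA were compared directly by UA+DSS against DSS+UA. No gene of the set was called by edgeR, where 9.23% of all genes were called lowered, while 5 of the 9 had an unadjusted p under 0.05, DESeq2 called 1 (Clec4d) and limma-voom 0. Csf3r (log2 fold change -2.67, SE 1.10), Fpr1 (-2.18, SE 1.28), Fpr2 (-1.70, SE 1.02), Trem1 (-4.35, SE 1.42), Trem3 (-3.03, SE 1.25) and Clec4d (-2.53, SE 0.95) were lower in every UA+DSS library than in any DSS+UA library, as were 22.6% of all genes (edgeR adjusted p 0.0596 to 0.269). With DSS 2 left out of the fit, which takes no part in this comparison but enters the shared estimate of the spread, these 6 were called (edgeR adjusted p 0.00542 to 0.0337). With the position score as a covariate none was. The count of 6 without overlap is no support on its own. Trem3 reached the filter of 0.539 CPM in 0 UA+DSS libraries, Trem1 in 1 and Fpr1 in 2, while each reached it in every DSS+UA library.

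Other genes of the pathway were taken from a list of 54, of which 46 could be tested. In DSS against Con 33 were called raised (13.9% of all genes were), 3 lowered and 10 neither, with a median log2 fold change of 2.55 against -0.03 over all genes. This count is no support on its own either, since some of these genes, among them Cxcr2, Clec4e and Il5ra, stayed under the filter in every Con library. All 6 tested genes of the chemoattractant receptor list rose, which besides receptors holds Anxa1, the gene of annexin A1. Among them was C5ar1, the receptor of complement C5a (log2 fold change 5.03, SE 0.87, edgeR adjusted p = 0.00417, and 3.25 without DSS 2). Another was Cxcr2, the receptor of neutrophil chemokines, which held 1 read over the Con libraries and 20.0 to 372 CPM in DSS (edgeR adjusted p = 0.00279, and 0.000335 without DSS 2). Of the colony factors and receptors 5 of 8 rose, including Csf2rb2 (4.26, SE 0.58, edgeR adjusted p = 0.00223, and 3.29 without DSS 2), while Csf2ra, the GM-CSF binding chain, held 18.0 to 23.3 CPM in Con and 28.2, 164 and 22.6 CPM in DSS (1.79, SE 0.61, edgeR adjusted p = 0.0513, and 0.29 without DSS 2). Kit and Kitl, the stem cell factor receptor and its ligand, and Gfi1, a transcription factor of granulocytes and secretory cells, were the 3 lowered (log2 fold changes -1.21, -0.70 and -1.24, edgeR adjusted p 0.0239 to 0.0300), and without DSS 2 only Kit stayed called.

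Of the TREM family and its adaptors 6 of 7 tested genes were called raised, of the C-type lectins and adaptors 8 of 10, of the STAT signalling list 5 of 8 and of the granulocyte transcription factors 3 of 7. Hcst, Malt1, Bcl10, Jak2, Cish and Pim2 were among those not called. Tyrobp, through which Trem1 and Trem3 signal, had a log2 fold change of 3.69 (SE 0.72, edgeR adjusted p = 0.00646), and Fcer1g, the adaptor of Clec4d and Clec4e, 3.65 (SE 0.69, edgeR adjusted p = 0.00572). Clec4e, the partner of Clec4d, held 2 reads over the Con libraries and 21.2, 693 and 24.6 CPM in DSS (edgeR adjusted p = 0.00354). Pilra, an inhibitory receptor of myeloid cells, rose by 4.42 (SE 0.87, edgeR adjusted p = 0.00642). Downstream of the colony factor receptors, Stat3 rose by 1.5 (SE 0.16, edgeR adjusted p = 0.000868) and its feedback inhibitor Socs3 by 4.95 (SE 0.70, edgeR adjusted p = 0.00242). The transcription factors Cebpb and Spi1 rose by 4.16 (SE 0.60, edgeR adjusted p = 0.00250) and 3.95 (SE 0.80, edgeR adjusted p = 0.00743). Without DSS 2 each of these 8 genes given with values stayed called, at 2.60, 2.50, 2.60, 1.38, 3.73, 2.93 and 2.43 for those with a fold given, in the order named. The counts of Pilra and Cebpb are uncertain, since exons of Zcwpw1 and Tmem189 overlap theirs on the other strand.

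In UA+DSS against DSS 27 of the 46 pathway genes were called lowered, where 10.5% of all genes were, and 4 raised (Kit, Kitl, Cebpa and Gfi1, against 8.21%), with a median of -1.78 against -0.02 over all genes. Socs3 fell by 3.08 (SE 0.64, edgeR adjusted p = 0.0147), Csf2rb2 by 2.82 (SE 0.54, edgeR adjusted p = 0.0122) and Stat3 by 0.81 (SE 0.15, edgeR adjusted p = 0.0113). Without DSS 2 the log2 fold changes were -1.87 for Socs3, -1.85 for Csf2rb2 and -0.69 for Stat3, all still called. The count of calls was 21 without DSS 2, 19 without UA+DSS 1 and 12 without UA+DSS 3. It was 0 when UA+DSS 2 was left out and with the position score as a covariate. In DSS+UA against DSS 5 of the 46 were called lowered, where 5% of all genes were: Csf2rb2 (-2.48), C5ar1 (-3.13), C5ar2 (-1.86), Stat5b (-0.80) and Cebpb (-2.38), with edgeR adjusted p of 0.0283 to 0.0481, and the median was -1.22 against 0.02. Without DSS 2 only Cebpb stayed called (-1.13, edgeR adjusted p = 0.0192), and the count was 12 and 16 without DSS 1 and DSS 3 and 0 without any 1 DSS+UA library.

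The genes nearest in pattern over the 12 libraries were taken for Csf3r, Csf3 and Csf1, by Pearson's r of log2 CPM, given as a description because the libraries share groups, depth and DSS 2. For Csf3r they were Ifitm1 (r = 0.988), Clec4d (0.988) and Nlrp3 (0.985), with DSS means of 362, 130 and 88.2 CPM against Con means of 14.9, 0.580 and 0.639 CPM. For Csf3 they were Mmp3 (0.969), Cemip (0.966) and Timp1 (0.963), the first a matrix-degrading protease and the last an inhibitor of such proteases. The mean level of Mmp3 was 1.39 CPM for Con, 200 CPM for DSS, 13.3 CPM for UA+DSS and 39.1 CPM for DSS+UA. For Csf1 they were Palm (0.936), Pknox2 (0.933) and Rtl5 (0.929), and the mean of Palm was 15.4 CPM for Con, 24.4 CPM for DSS, 15.2 CPM for UA+DSS and 14.9 CPM for DSS+UA.

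Levels were also set against calprotectin, the main protein of the neutrophil cytosol. Over the DSS and DSS+UA libraries the 7 receptors then had a narrower range than in level, though not equally. For Csf3r, Trem3, Clec4d and Csf2rb this narrowing rested on DSS 2. Per 1000 CPM of S100a8 and S100a9 together, Fpr1 held 24.6, 25.4 and 19.8 CPM in DSS 1 to 3 and 12.9, 22.1 and 15.9 CPM in DSS+UA 1 to 3. Trem1 held 46.5, 39.8 and 39.2 CPM in the DSS libraries and 25.9, 42.9 and 35.3 CPM in DSS+UA. The other 5 receptors were highest by this ratio in DSS+UA 2. Fpr2 held 25.3 CPM there against 7.97 to 23.2 CPM in the other 5 libraries. Csf3r held 162 against 25.8 to 72.4 CPM, Clec4d 114 against 20.6 to 65.8 CPM, Trem3 16.4 against 2.12 to 4.59 CPM and Csf2rb 295 against 32.0 to 192 CPM. With DSS 2 set aside, Csf3r ranged from 25.8 to 162 by this ratio and from 13.5 to 34 CPM in level. The ratio then had the wider range for Csf3r, Trem3, Clec4d and Csf2rb, and still the narrower one for Fpr1, Trem1 and Fpr2. Csf3 held 31.0, 3.56 and 40.3 CPM in the DSS libraries and 5.75, 3.79 and 13.0 CPM in DSS+UA. Its range was thus also narrower by this ratio than in level (0.371 to 50.9 CPM). Csf1 by contrast held 67.9, 3.19 and 54.4 CPM in the DSS libraries and 32.9, 235 and 35.8 CPM in DSS+UA. That range was wider than the one of its level (17.2 to 45.7 CPM). DSS 2 therefore lay close to the other DSS libraries in Fpr1 and Trem1 by this ratio, and between them in Csf3r. It lay below both in Csf3 and Csf1, and also in the receptors Csf2rb (32.0 CPM against 192 and 85.4 CPM), Clec4d (23.7 against 65.8 and 29.2 CPM), Fpr2 and Trem3.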

How the data were processed

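Total RNA of 12 mouse colons was sequenced. The labels name Trizol and the methods the RNeasy kit for extraction. GRCm38 was the build to which the authors mapped, and their read counts came from Hisat2 (FastQC and Cuffdiff are also named in the submitters' processing notes), and the deposited values are whole-number counts per Ensembl gene, not normalized. The sources used here give no versions, annotation or use of strand. Groups and replicates were taken from the labels and each library is a separate mouse.

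edgeR 4.0.16 in R 4.3.3 fitted 1 robust quasi-likelihood model with TMM scaling to the 17658 of 54532 genes that passed filterByExpr (biological coefficient of variation 0.352), tested on simulated data. All 6 pairs of groups were compared, with Benjamini-Hochberg adjustment and a threshold of 0.05. SE is the log2 fold change over the square root of F. Gene places, exon lengths and shared stretches of 50 bases come from the GENCODE annotation of GRCm38. Count ratios are exact binomial at the 95% level, with a floor of 3 counts. The 23 alternatives were DESeq2 1.42.0, limma-voom 3.58.1, other scaling, filters and samples, the replicate number as a block and the position score. Members and lists were chosen with earlier results of these data known. Besides the members, the text names the 2 genes of smallest p in DSS against Con of each of 6 role lists, the partners Csf1r, Csf2ra, Csf2rb2, Tyrobp and Clec4e, and the 3 genes most alike to Csf1, Csf3 and Csf3r (mean log2 CPM of at least 1, prior count 2, predicted genes excepted). Il5ra, Kit, Kitl, Gfi1, Cebpa, C5ar2, Stat5b, Anxa1, the pathway genes listed as not called and the single marker genes were named after their values were seen. No libraries of a group agreed within sampling noise (chi-square per degree of freedom 20.9 to 227).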

Additional observations from a re-analysis of the deposited data

How the results depend on the processing

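The 9 calls of DSS against Con and of UA+DSS against DSS became 4 and 4 with DESeq2, which gives no p for 5 of the genes because of outlying counts, and 3 and 3 with at least 10 counts in every sample, where only Csf1, Csf2rb and Csf3r are left. For UA+DSS against DSS they became 4 with limma-voom, 4 with only the 2 groups compared, and 0 with the position score as a covariate, with or without DSS 2. For DSS+UA against DSS the 3 calls became 1 with limma-voom, 1 with the library size alone, 1 with at least 10 counts in every sample, 0 without a filter, 0 with only the 2 groups, 0 with the position score and 1 with it and no DSS 2, and 8 with DESeq2 without its outlier filter. The 6 calls of DSS+UA against Con became 3 with DESeq2, 0 with limma-voom, 3 with the library size alone, 0 without a filter, 1 with at least 10 counts in every sample and 0 with the position score. UA+DSS against DSS+UA gave 1 call with DESeq2, 4 without its outlier filter and 6 with only the 2 groups. DESeq2 without its outlier filter and the position score without DSS 2 were chosen after seeing the data. Of the pathway list, the 36 calls of DSS against Con became 22 with only the 2 groups. The 31 of UA+DSS against DSS became 14 with only the 2 groups, 0 with the position score and 1 with it and no DSS 2. The 5 of DSS+UA against DSS became 15 and 22 with DESeq2 with and without its outlier filter, 3 with limma-voom, 1 without a filter, 10 with at least 10 counts in every sample, 0 with only the 2 groups, 0 with the position score and 1 with it and no DSS 2. Where no construction of the alternative shows the cause, the cause was not tested.

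Leaving out 1 library at a time gave 8 to 9 calls in DSS against Con, 0 to 9 in UA+DSS against DSS, 0 to 7 in DSS+UA against DSS, 0 to 8 in DSS+UA against Con and 0 to 6 in UA+DSS against DSS+UA, and 30 to 41, 0 to 38 and 0 to 16 of the pathway list. The small log2 fold changes of Csf1 outside DSS turned sign: in UA+DSS against Con 0.13 and 0.15 with the position score, with and without DSS 2, and 0.07 without Con 3 (-0.42 to 0.07 over the libraries left out); in DSS+UA against Con -0.07 with the library size, -0.06 with upper-quartile factors, -0.02 with at least 10 counts, -0.00 with only the 2 groups, -0.17 and -0.18 with the position score, -0.25 without Con 2 and -0.07 without DSS+UA 2 (-0.25 to 0.25 over the libraries left out); and in UA+DSS against DSS+UA 0.30 and 0.32 with the position score. Csf2rb in that comparison was 0.07 with the position score and no DSS 2. None of these was called.

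The replicate numbers do not pair the samples (18 correlations of -0.22 to 0.19, 5 of them over 0.1, and 5 of 12 libraries nearest their own number). The replicate block gave 8, 8, 0, 0, 4 and 0 calls of the set in the 6 comparisons in the order above of DSS against Con, UA+DSS against DSS, DSS+UA against DSS, UA+DSS against Con, DSS+UA against Con and UA+DSS against DSS+UA, and 35, 25 and 1 of the pathway list in the first 3. Depth limits Csf2, with 0 to 19 counts per library, and Csf3 and Trem3 in Con, with 2 counts over the group.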

Other observations

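Il5ra, the binding chain of the IL-5 receptor and a gene of eosinophils, overlapped between DSS+UA and DSS. It held 0.465, 0 and 0.267 CPM in Con, 12.1, 38.3 and 13.2 CPM in DSS, 0.256, 0.874 and 3.29 CPM in UA+DSS, with 14.4, 7.79 and 12.0 CPM in DSS+UA. It was called raised both in DSS against Con (log2 fold change 6.39, SE 1.05, edgeR adjusted p = 0.00346) and in DSS+UA against Con (5.49, SE 1.03, edgeR adjusted p = 0.00855), and lowered in UA+DSS against DSS (-3.82, SE 0.89, edgeR adjusted p = 0.0186) and UA+DSS against DSS+UA (-2.92, SE 0.86, edgeR adjusted p = 0.0425), both calls being lost with the position score as a covariate. In DSS+UA against DSS the log2 fold change was -0.90 (SE 0.78, edgeR adjusted p = 0.464), and -0.14 without DSS 2. Whether it differed in this from the neutrophil receptors was not tested.

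Kit, a receptor of mast cells and of the pacemaker cells of the gut, was lowest in DSS+UA, with 19.5, 18.9 and 15.6 CPM. It held 42.0, 89.6 and 113 CPM in Con, 22.8, 43.3 and 39.4 CPM in DSS, with 87.1, 124 and 91.9 CPM in UA+DSS. The log2 fold change was -2.18 in DSS+UA against Con (SE 0.35, edgeR adjusted p = 0.00528) and 2.49 in UA+DSS against DSS+UA (SE 0.35, edgeR adjusted p = 0.00591), where the position score also differed and the call was lost with it as a covariate.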
